A study of Mus musculus with 16 samples.

Results

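Liver tissue lying next to the tumours of Axin1-deleted mice was compared with liver of control mice, over every gene the arrays name. The comparison uses 8 of the 16 arrays of the study: adjacent liver of 5 mice (numbered 121, 124, 123, 1931 and 81) and liver of 3 control mice (numbered 10, 11 and 12), all chosen by their titles. All mice were male and 16 months old. The Axin1-deleted mice carried the Axin1 fl/fl allele and the Alfp-Cre transgene, whose recombinase is active in hepatocytes of the embryo, and such mice form liver tumours after 9 months. The controls are labelled as non deleted, and whether they carried the floxed allele or the transgene is not stated in the labels. Each array holds RNA of whole tissue from 1 mouse, so cells other than hepatocytes, which may keep Axin1, contribute to every value. Fewer cells of a type cannot be told apart from less RNA per cell. The other 8 arrays hold tumours of 6 mice and are used here for context only.

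Axin1 is a scaffold protein. Together with Apc, it gathers the kinases that mark beta-catenin for destruction, and beta-catenin drives the target genes of Wnt signalling, which in liver mark hepatocytes around the central vein. PPARalpha, a nuclear receptor that senses fatty acids, turns on the genes that bring fatty acids into mitochondria and peroxisomes and oxidise them there, together with the Cyp4a enzymes that hydroxylate fatty acids at the far end of the chain.

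Values are log2 expression values, so a difference of 1 is a 2-fold change. They are given throughout in the order of controls 10, 11 and 12 and of adjacent livers 121, 124, 123, 1931 and 81. A difference is adjacent minus control, its SE is that of limma's moderated fit, and 2 groups are said not to overlap where the lowest value of one lies above the highest value of the other.

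The adjacent livers correlated with each other at 0.976 to 0.989 over all genes and controls 11 and 12 at 0.983, whereas control 10 correlated with the other 7 livers at 0.967 to 0.982. Control 10 lay at least 1 log2 unit above all 7 other livers for 190 genes, and adjacent liver 121 did so for 50. The largest gaps of control 10 were those of Cxcl13, a chemokine that attracts B cells (11.21, against at most 6.48 elsewhere), and of Camp and S100a9, products of neutrophils (6.85 against at most 2.86, and 10.17 against at most 6.34). Ngp, S100a8, Orm2, Ly6c2, Adgre4, Cxcl1 and Tmc3 followed. Of 31 acute phase proteins, 27 were highest in control 10. Acot1, Cyp4a12b, Igfbp2, Tle1 and Slc25a25 were furthest below the other livers there. List medians below are therefore also given without control 10, and so is the difference of a gene where its omission moved a printed difference by over 1.5 times or turned its sign. The part of its inflammation in any result was not tested. The 21 secreted hepatocyte proteins, such as albumin (12.32 to 12.48 for Alb), had a median difference of -0.03 (-0.01 without control 10), so the labelled tissue carried its defining markers. Xist stayed between 3.12 and 3.35, and the Y-linked Eif2s3y between 7.50 and 8.10, as the label male requires.

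Axin1 itself was lower in all 5 adjacent livers than in any control. Its values were 5.07, 5.24 and 5.48 in the controls and 4.24, 4.38, 3.90, 4.39 and 4.11 in adjacent liver. The groups did not overlap, and the gap between the highest adjacent and the lowest control value exceeded the SD of either group (0.20 and 0.21). The difference was -1.06 (SE 0.16), a level 2.08-fold lower, and -1.15 without control 10. A two-sided exact permutation test over the 56 splits of the 8 livers gave p = 0.0179, the smallest it can give. Since Axin1 is the deleted gene, a lower level was set by the design, and the test only checks the labels. The adjusted p of Axin1 by limma over all genes was 0.252. Where the probes lie relative to the deleted part of the gene is not stated in the labels. The tumours had a mean of 4.44 ± 0.31 (SD, n = 6 mice).

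Over all 23279 genes, no gene differed at limma's adjusted p under 0.05 (0 genes, 0%), and the smallest adjusted p was 0.252. An unadjusted p under 0.05 was reached by 1314 genes, 5.64%, of which 703 were higher and 611 lower in adjacent liver. All 5 adjacent livers lay above all 3 controls for 508 genes, 2.18%, and below them for 474 genes, 2.04%. Of these, 16 were at least 1 log2 unit higher and 13 at least 1 log2 unit lower. Without control 10, 2 genes passed (0.00859%), both lower in adjacent liver, and the groups did not overlap for 1095 higher genes, 4.70%, and 1384 lower genes, 5.95%. The median difference over all genes was -0.01 with and without control 10. The values of single genes below are therefore descriptions of these 8 livers, with limma's adjusted p beside them.

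The largest difference by the rule for named genes was that of Cyp4a14, a cytochrome P450 that hydroxylates fatty acids and is a textbook target of PPARalpha. It stood at 5.89, 6.48 and 6.40 in the controls and at 9.16, 8.12, 10.08, 9.06 and 10.90 in adjacent liver. The lowest adjacent liver thus lay more than 1 log2 unit above the highest control. The difference was 3.21 (SE 0.50, limma adjusted p = 0.252), 9.24-fold, and 3.02 without control 10. The 6 tumours ranged from 3.74 to 8.13, below 4 of the 5 adjacent livers.

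With all controls, genes of fatty acid oxidation were higher across the list. Of its 42 measured members 41 had a positive difference, with a median of 0.48, against a median of -0.01 over all genes. An unadjusted p under 0.05 by limma was reached by 20 members, all higher, against 703 higher genes among all 23279. In 8 of 42 (19%, against 2.18% of all genes) the 5 adjacent livers lay above all controls. None passed limma's adjusted threshold. Without control 10 the median was 0.29 and 8 members (19%) lay above both remaining controls, against 4.70% of all genes. Acot3, Hadha, Mlycd, Abcd3 and Creb3l3 then joined Abcd2 below 0. The interferon (0.45), female-biased (0.44), macrophage (0.41) and lipid droplet (0.31) lists then had higher medians. Control 10 was the lowest of the 8 livers for 28 of the 42, and adjacent liver 81 was the highest of the 5 adjacent livers for 19.

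**Figure D1:**
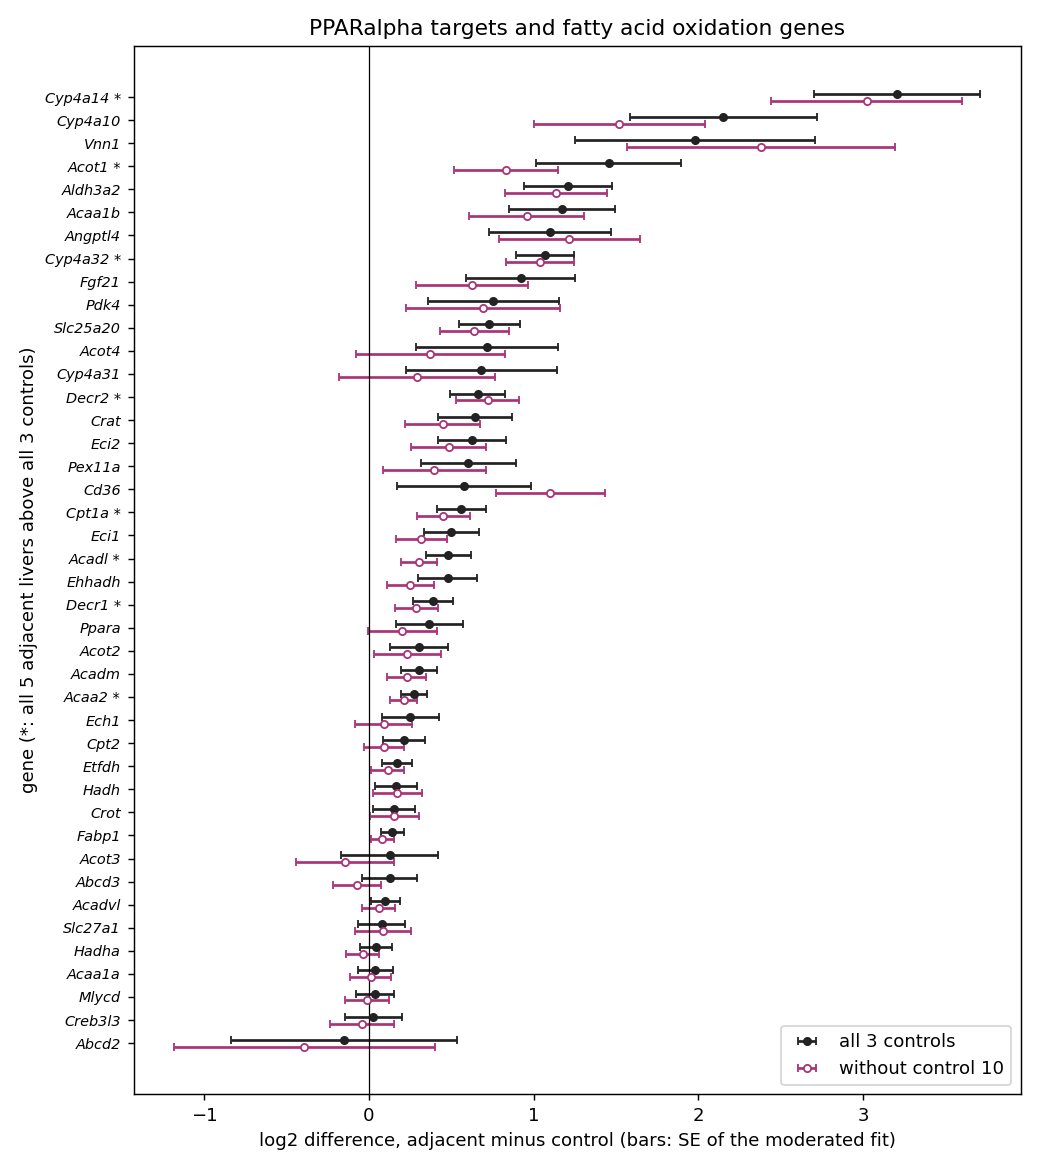
Log2 difference between adjacent and control liver (x axis) for each of the 42 measured PPARalpha target and fatty acid oxidation genes (y axis), with bars of the SE of the moderated fit; filled black points use all 3 controls and open purple points leave out control 10. Cyp4a14 stands at 3.21 and Abcd2, at -0.15 (-0.39 without control 10), is the only member below 0 with all controls; the 8 starred genes do not overlap between groups.

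Relative to the mean of controls 11 and 12, the mean level of these 42 genes was -0.35 in control 10, -0.11 in control 11 and 0.11 in control 12. It was 0.50, 0.13, 0.51, 0.54 and 0.77 in the adjacent livers. Adjacent liver 124 thus lay just above control 12 on this mean, and liver 81 furthest from it.

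To show what lies in front of such genes, the promoter windows of 2 members are printed from RefSeq (GRCm38.p6, 250 bases before to 50 after the start, 5′ to 3′ on the strand of the gene). Cpt1a was chosen as the only one of the non-overlapping members whose window holds AGGTCA, the core that PPARalpha and many other nuclear receptors bind. Fabp1 was chosen as the only member with 2 such cores 1 base apart, searched as AGGNCA, any base and AGGNCA again. Both words were searched on both strands, and the second contains loose forms of the first. Capitals mark the match of AGGTCA in Cpt1a (chr19:3323051-3323350, plus strand) and of the longer word in Fabp1 (chr6:71199629-71199928, plus strand). Both matches read on the opposite strand.
Cpt1a: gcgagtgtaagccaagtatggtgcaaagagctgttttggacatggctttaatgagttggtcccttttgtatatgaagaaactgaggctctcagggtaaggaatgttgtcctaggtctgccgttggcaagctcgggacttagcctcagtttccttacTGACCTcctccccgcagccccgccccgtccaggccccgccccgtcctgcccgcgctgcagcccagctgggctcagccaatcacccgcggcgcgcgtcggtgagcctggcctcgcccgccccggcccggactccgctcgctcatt
Fabp1: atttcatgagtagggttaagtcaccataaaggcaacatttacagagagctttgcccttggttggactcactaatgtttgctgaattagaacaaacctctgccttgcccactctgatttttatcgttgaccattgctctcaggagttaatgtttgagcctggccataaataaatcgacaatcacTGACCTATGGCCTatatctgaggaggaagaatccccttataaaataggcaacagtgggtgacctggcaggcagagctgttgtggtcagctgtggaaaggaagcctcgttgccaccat

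The matches begin 94 bases before the start of Cpt1a and 67 before that of Fabp1. A window was listed for 33 of the 42 members and for 5 of the 8 that do not overlap. AGGTCA stood in the windows of 8 members (24.2% of 33), against 18.1% of all 27025 genes with a window, and in 1 of the 5. The longer word stood in 1 member, against 0.451% of all genes, or 0.381% of the 32851 windows. These counts describe letters in a window and say nothing of binding in these livers.

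By role, the Cyp4a enzymes led the list. RefSeq places Cyp4a14, Cyp4a10, Cyp4a31 and Cyp4a32 side by side on chromosome 4, and such near copies can share signal on an array. Cyp4a32 stood at 5.38, 5.55 and 5.37 in the controls and at 6.59, 6.62, 6.90, 6.21 and 6.17 in adjacent liver. These groups were apart by more than their SDs (0.10 and 0.31), and the difference was 1.07 (SE 0.18, limma adjusted p = 0.252). Cyp4a10, chosen after its values were seen, was at 5.91, 7.13 and 8.48 against 8.74, 8.24, 9.75, 9.61 and 10.29. Its difference was 2.15 (SE 0.57), but control 12 lay above adjacent liver 124. Cyp4a31 had a difference of 0.68 (SE 0.46), and of 0.29 without control 10, with overlapping groups.

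Acyl-CoA thioesterases release free fatty acids from coenzyme A. Acot1 stood at 4.64, 6.47 and 6.57 in the controls and at 6.78, 7.06, 7.38, 7.28 and 8.24 in adjacent liver. The groups did not overlap, but control 10 lay 1.82 log2 units below any other liver, and the difference of 1.46 (SE 0.44, limma adjusted p = 0.811) was 0.83 without it. Its chromosomal neighbours Acot2, Acot4 and Acot3 had differences of 0.30, 0.72 and 0.13, with overlapping groups. Without control 10 that of Acot4 was 0.37 and that of Acot3 turned to -0.14.

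Entry of fatty acids into mitochondria and their breakdown there rest on Cpt1a, the carnitine palmitoyltransferase of the outer membrane, on Acadl, a long-chain dehydrogenase, on Acaa2, a thiolase, and on Decr1, a reductase for unsaturated chains. Cpt1a, whose promoter is printed above, stood at 8.37, 8.66 and 8.73 against 9.18, 9.08, 8.89, 9.04 and 9.55. Its difference was 0.56 (SE 0.15, limma adjusted p = 0.749), 1.48-fold. The differences of Acadl (0.48, and 0.31 without control 10), Decr1 (0.39) and Acaa2 (0.28) were smaller, all with groups that did not overlap. Decr2, the peroxisomal counterpart of Decr1, stood at 9.06, 8.69 and 9.07 against 9.50, 9.18, 9.60, 9.78 and 9.94, a difference of 0.66 (SE 0.17). Fabp1, the abundant fatty acid binding protein of hepatocytes, differed by 0.14, and by 0.08 without control 10.

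Several other members were far apart on average while single livers overlapped; they are named here after their values were seen. Vnn1, a pantetheinase, had a difference of 1.98 (SE 0.73), Aldh3a2, a fatty aldehyde dehydrogenase, 1.21 (SE 0.27), Acaa1b, a peroxisomal thiolase, 1.17 (SE 0.32), and Angptl4, a secreted inhibitor of lipoprotein lipase, 1.10 (SE 0.37). For Aldh3a2 the overlap was 1 pair of values, 9.54 in control 12 and 9.51 in adjacent liver 124. Fgf21, a hormone secreted in fasting, had a difference of 0.92, the carnitine carrier Slc25a20 0.73, and the receptor gene Ppara itself 0.37 (SE 0.20), which was 0.20 (SE 0.21) without control 10. The fatty acid transporter Cd36 was highest among the controls in control 10, with 9.05 there and 7.78 and 7.17 in the other 2; its difference was 0.58 with and 1.10 without that control.

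With all controls, lipid droplet proteins and lipases formed the list with the next highest median, 0.38 (0.31 without control 10) over 20 measured genes. In 3 of them (15%, against 2.18% of all genes) adjacent liver lay above all controls, and in 1 (5%, against 2.04%) below. G0s2, an inhibitor of the triglyceride lipase Pnpla2, stood at 7.23, 8.23 and 8.23 against 8.61, 8.26, 8.94, 9.06 and 9.39. The difference was 0.96 (SE 0.28, limma adjusted p = 0.793) and 0.62 without control 10, and liver 124 lay just above controls 11 and 12. Pnpla2 differed by 0.44 and Plin5, which tethers droplets to mitochondria, by 0.58. Hsd17b13, a droplet protein of hepatocytes, lay below all controls with a difference of -0.65 (10.23, 10.37 and 10.22 against 10.20, 9.99, 9.21, 9.36 and 9.40).

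Cidec, which fuses droplets and was named after its values were seen, stood at 4.92, 4.38 and 5.39 against 7.92, 4.81, 6.01, 7.23 and 7.97. In 4 of the 5 adjacent livers it was above all controls, while liver 124 lay within their range, and the difference was 1.89 (SE 0.65). Plin2, the main droplet coat protein of hepatocytes, was likewise at 9.46 in liver 124, within the controls' 9.40 to 9.52, and at 10.11 to 10.29 in the other 4. Synthesis genes of fatty acids and triglycerides, 23 measured, had a median of 0.22 (0.20 without control 10) and none whose groups did not overlap. Scd1, a desaturase, differed by 0.22 and Fasn, fatty acid synthase, by 0.16 (SE 0.22), and by 0.25 without control 10. Acacb, the acetyl-CoA carboxylase whose product inhibits Cpt1a, differed by 0.77 with overlap and by 1.03 without overlap once control 10 was left out.

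Lpin2, a phosphatidate phosphatase of triglyceride synthesis named after its values were seen, varied little between controls. It stood at 9.14, 9.10 and 9.10 in the controls and at 10.38, 9.98, 9.73, 9.90 and 10.47 in adjacent liver, a difference of 0.98 (SE 0.16, limma adjusted p = 0.252). Fabp2, a fatty acid binding protein better known from intestine, stood at 9.05, 9.86 and 10.15 against 10.71, 10.50, 10.81, 10.92 and 10.81. Its difference was 1.07 (SE 0.21, limma adjusted p = 0.554) and 0.75 without control 10.

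**Figure D2:**
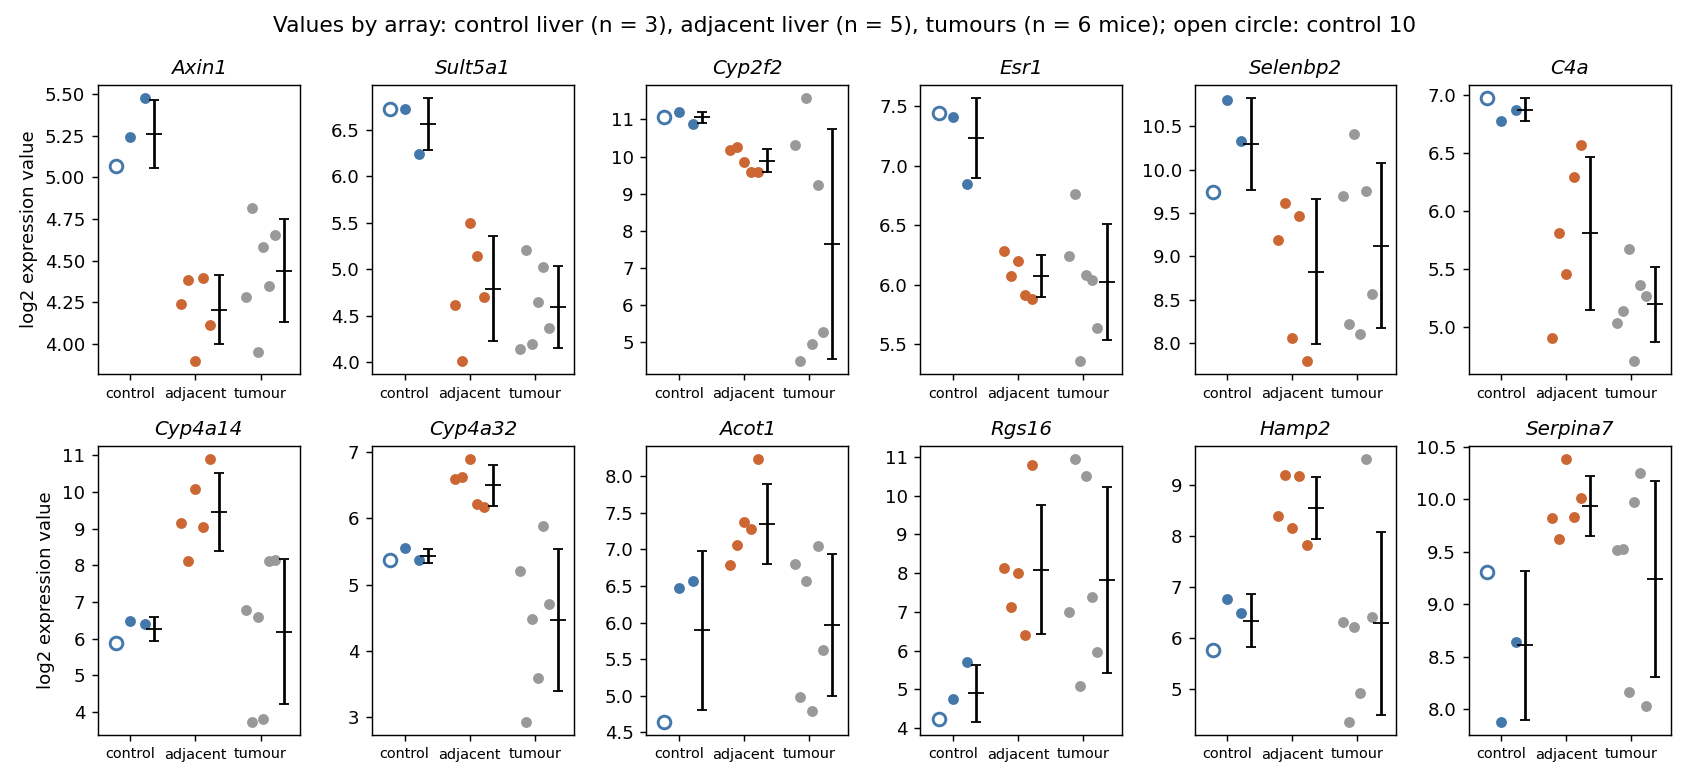
Log2 expression value (y axis) of 12 genes in control liver (blue, n = 3), adjacent liver (orange, n = 5) and tumours (grey, 1 point for each of 6 mice); points stand in the order of the text, the open circle is control 10, and the black bar gives mean and SD. In the top row adjacent liver lies below all controls, in the bottom row above them, and for Cyp4a14 the adjacent livers run from 8.12 to 10.90 against 5.89 to 6.48.

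Rgs16, a regulator that shortens G protein signals, had the next largest difference. It stood at 4.25, 4.76 and 5.70 in the controls and at 8.14, 7.11, 7.99, 6.41 and 10.80 in adjacent liver. No adjacent liver reached down to the controls, but liver 81 lay 2.66 log2 units above the next. The difference was 3.19 (SE 0.81, limma adjusted p = 0.696), 9.12-fold, and 2.86 without control 10. The tumours ran from 5.09, within the range of the controls, to 10.95.

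Hamp2, a close relative of the iron hormone hepcidin, stood at 5.77, 6.77 and 6.49 against 8.40, 9.20, 8.16, 9.18 and 7.83. Every adjacent liver was more than 1 log2 unit above every control, and the difference was 2.21 (SE 0.34, limma adjusted p = 0.252), 4.63-fold, and 1.93 without control 10. Hamp, which encodes hepcidin and lies next to Hamp2 on chromosome 7, showed no such gap. It ranged from 11.90 to 12.32 in the controls and from 11.79 to 12.37 in adjacent liver, with a difference of 0.00 (SE 0.15) whose sign depended on the scaling, and of -0.09 without control 10. Of the 18 measured genes of iron handling, Hamp2 and Fth1, the ferritin heavy chain (0.16), lay above all controls (11.1%, against 2.18% of all genes) and Bmp6, a signal that induces hepcidin (-0.43), below them (5.56%, against 2.04%). The list median was -0.09, and -0.05 without control 10. In the tumours Hamp2 had a mean of 6.29 ± 1.79 (SD, n = 6 mice), against 6.34 in the controls.

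Serpina7, the thyroxine-binding globulin, stood at 9.30, 7.88 and 8.64 against 9.82, 9.62, 10.38, 9.83 and 10.02. The difference was 1.32 (SE 0.27, limma adjusted p = 0.650) and 1.67 without control 10 (adjusted p = 0.115), since control 10 was its highest control. Ntrk2, a neurotrophin receptor with a female bias in mouse liver, differed by 1.06 (SE 0.27). The matrix protease gene Mmp7 differed by 1.18 (SE 0.47), but 3 of its adjacent livers were between 5.35 and 5.74, close to the highest control at 5.34. Fam83a and Wdr73 differed by 1.24 and 1.03. The solute carriers Slc17a4 and Slc16a7, named after their values were seen, each differed by 0.82 (SE 0.14 for each, limma adjusted p = 0.252 for each).

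Retinol dehydrogenases of 1 cluster on chromosome 10 lay in opposite directions. Rdh9 stood at 8.18, 7.87 and 8.40 against 9.19, 8.91, 9.21, 8.80 and 10.02, a difference of 1.08 (SE 0.25, limma adjusted p = 0.650). The gene next to it, Rdh16, named after its values were seen, stood at 9.00, 8.80 and 9.15 against 9.64, 9.61, 10.17, 10.15 and 9.97, a difference of 0.92 (SE 0.15, limma adjusted p = 0.252). Rdh16f2, 2 coding genes beyond Rdh16, was lower: 9.61, 9.75 and 8.93 against 7.89, 8.85, 8.82, 8.72 and 8.48, a difference of -0.88 (SE 0.24, limma adjusted p = 0.793). In none of the 3 did the groups overlap, although shared probes could blur such paralogs.

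Among genes lower in adjacent liver, Sult5a1, a sulfotransferase, had the largest difference by the rule. It stood at 6.73, 6.72 and 6.24 in the controls and at 4.62, 4.01, 5.49, 5.14 and 4.70 in adjacent liver. The highest adjacent liver lay 0.75 below the lowest control. The difference was -1.77 (SE 0.29, limma adjusted p = 0.252), a level 3.42-fold lower, and -1.69 without control 10. The tumours, at 4.59 ± 0.44 (SD, n = 6 mice), had a mean close to that of adjacent liver. Of the 21 sulfotransferase and sulfate donor genes measured, 2 lay above all controls (9.52%, against 2.18% of all genes), Sult1d1 (0.69) and Sult1a1 (0.47), and Sult5a1 alone lay below (4.76%, against 2.04%). The median was 0.12, and -0.0019 without control 10.

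Esr1, the estrogen receptor alpha, stood at 7.44, 7.41 and 6.84 against 6.29, 6.07, 6.20, 5.92 and 5.88. The 5 adjacent livers lay within 0.41 of one another and below every control, and the difference was -1.16 (SE 0.17, limma adjusted p = 0.252), 2.23-fold lower, and -1.05 without control 10. Selenbp2, a selenium-binding protein with a male bias, stood at 9.75, 10.81 and 10.33 against 9.19, 9.61, 8.06, 9.46 and 7.79, a difference of -1.47 (SE 0.43, limma adjusted p = 0.793). Livers 123 and 81 were the lowest by more than 1 log2 unit. C4a, a complement gene whose sequence is nearly that of C4b, stood at 6.98, 6.78 and 6.87 against 4.91, 5.81, 5.46, 6.30 and 6.57, a difference of -1.07 (SE 0.32, limma adjusted p = 0.811). The adjacent livers were spread over 1.66 log2 units and the controls over 0.20.

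Further genes below all controls were Cryl1, a lens crystallin homologue that acts as a sugar dehydrogenase (-1.05), Sstr2, a somatostatin receptor (-1.02), Ublcp1, a nuclear phosphatase (-0.97), Neat1, a long noncoding RNA of nuclear paraspeckles (-0.95), and Plxna2, a semaphorin receptor (-0.89). Sstr2 and Ublcp1 had the narrowest adjacent values of these, 4.01 to 4.49 and 3.86 to 4.21. Tumours were not on the same side for all of them: Sstr2 ranged from 4.82 to 6.22 in tumours, above every adjacent liver.

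Without control 10, limma's adjusted p passed for 2 genes, named after their values were seen because the rule leaves out small RNAs and predicted genes. Snora64, a small nucleolar RNA that guides pseudouridylation, stood at 7.24, 8.54 and 8.54 against 6.28, 6.30, 5.65, 6.01 and 5.55. Controls 11 and 12 were alike, control 10 lay between them and adjacent liver, and the difference went from -2.15 (SE 0.31) to -2.59 (SE 0.22, limma adjusted p = 0.0106) when control 10 was left out. Gm4956, a predicted gene, stood at 6.30, 8.17 and 7.40 against 5.30, 5.45, 4.91, 4.78 and 4.55, with -2.29 (SE 0.36) and, without control 10, -2.79 (SE 0.28, limma adjusted p = 0.0228). Both were below all 3 controls in all 5 adjacent livers. Ugt2b38, a glucuronosyltransferase with a male bias, came next at an adjusted p of 0.0908 by limma. It was at 5.33 and 5.47 in controls 11 and 12 but at 2.02 in control 10, level with the lowest of the adjacent livers, which ran from 2.02 to 3.52.

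Hepatocyte zonation was described with genes of the zone around the portal tract and with Wnt targets around the central vein. Of 17 measured periportal genes, 10 had a negative difference, and the median was -0.35. Over all genes the median was -0.01, with negative differences about as common as positive ones. Below all controls lay 2 periportal genes (11.8%, against 2.04% of all genes), and above them 1 (5.88%, against 2.18%). Cyp2f2, a cytochrome P450 that marks periportal hepatocytes, stood at 11.08, 11.20 and 10.89 against 10.17, 10.26, 9.85, 9.59 and 9.58. The difference was -1.16 (SE 0.17, limma adjusted p = 0.252), 2.24-fold lower, larger than the spread of either group, and -1.15 without control 10. Hsd17b13, described above, was the other one, and G6pc, the last enzyme of glucose production, was higher by 0.65. Ass1 (0.35), Pck1 (0.29), Pigr (0.20), Hsd17b6 (0.16), Cps1 (0.10) and Arg1 (0.06) also had positive differences, with overlapping groups. Without control 10 Pck1 was at 0.17, Hsd17b6 at -0.43, Cps1 at -0.04 and Arg1 at -0.10.

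Without control 10 the periportal median was -0.43, and 7 of 17 (41.2%, against 5.95% of all genes) lay below both remaining controls. The 5 added were Hal, Uroc1 and Ftcd, which break down histidine, Etnppl, a phospholyase, and Cdh1, E-cadherin, all named after their values were seen. Hal stood at 9.43, 10.37 and 10.03 against 9.52, 9.79, 8.55, 8.40 and 7.94, and Etnppl at 7.02, 10.08 and 9.25 against 8.18, 8.90, 6.49, 7.15 and 6.24. Cdh1 stood at 5.98, 8.38 and 7.35 against 7.22, 6.05, 4.88, 5.46 and 5.18. In each of these 3 genes livers 123, 1931 and 81 were the lowest of the 8 or near it, and control 10 was below the other controls. The list mean, relative to controls 11 and 12, was -0.44 in control 10 and -0.17, -0.22, -0.88, -0.68 and -0.86 in the adjacent livers, so livers 121 and 124 lay above control 10.

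The 24 measured Wnt targets and pericentral genes had a median of 0.11 and of 0.07 without control 10. In 3 of them (12.5%, against 2.18% of all genes) adjacent liver lay above all controls, and in none below; without control 10 it was 4 (16.7%, against 4.70%). Cldn2, a tight junction protein, stood at 6.86, 6.36 and 6.71 against 7.23, 7.23, 7.63, 7.71 and 6.88, a difference of 0.70 (SE 0.20, limma adjusted p = 0.793). Lect2, a secreted protein, differed by 0.52 (SE 0.12) and Rgn, regucalcin, by 0.35 (SE 0.09), each with groups that did not overlap. Cyp2e1, a pericentral cytochrome P450, differed by 0.23 with overlapping groups. Axin2 (0.05), Lgr5 (0.12), Tbx3 (-0.02) and Glul (0.28), the widely used readouts of the pathway, overlapped between groups. Without control 10 these 4 differences were 0.01, -0.01, -0.16 and 0.44.

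Among 21 components and regulators of the beta-catenin destruction complex, Axin1 and Apc2 lay below all controls, 9.52% of the list against 2.04% of all genes. Axin1 is the deleted gene, so its place in this count was set by the design, and Apc2 is the only other member counted. Apc2 stood at 4.62, 4.68 and 4.91 against 4.62, 4.23, 4.26, 4.45 and 4.28, a difference of -0.37 (SE 0.14) in which liver 121 nearly met control 10. Apc (-0.21), Gsk3b (0.03) and Ctnnb1, beta-catenin itself (-0.03), had overlapping groups. The median of the list was -0.02 with and without control 10.

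**Figure D3:**
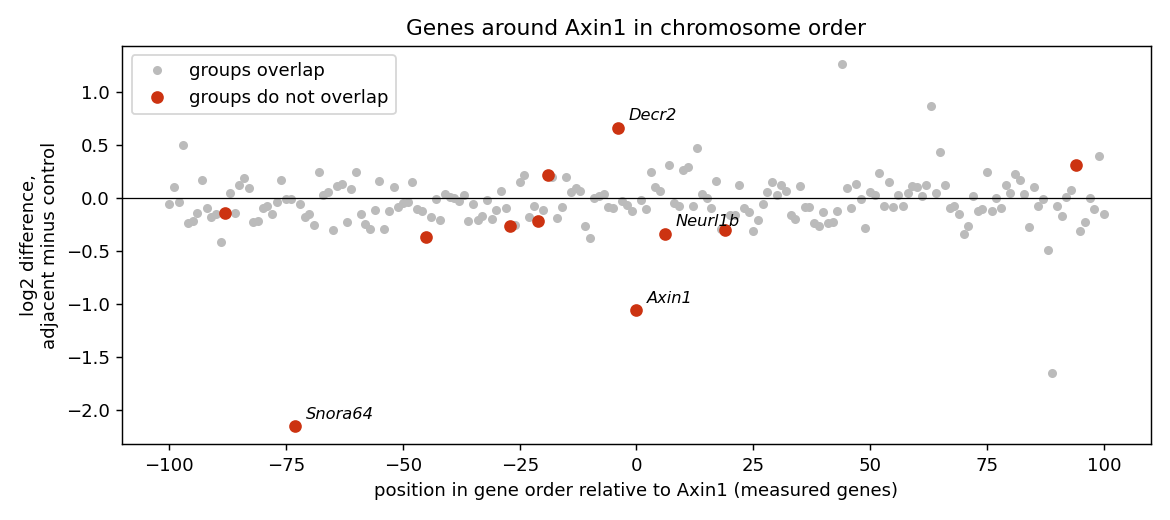
Log2 difference between adjacent and control liver (y axis) of Axin1 and of the 100 measured genes on each side of it in chromosome order (x axis, counted in genes); red points do not overlap between groups. Snora64, at -2.15, and Decr2, at 0.66, stand out on the left of Axin1, and 10 of the 200 neighbours are red.

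Since the targeted allele lies on chromosome 17, the genes around Axin1 were examined in the order RefSeq gives. Of the 40 nearest measured genes 4 did not overlap (10%), of the nearest 100 it was 7 (7%) and of the nearest 200 it was 10 (5%). Over the 1106 measured genes of the chromosome the share besides Axin1 was 3.62%, against 4.22% of all genes in both directions together. Decr2, named above among the oxidation genes, lies 4 genes from Axin1 and Snora64 73 genes away. The other 3 of the nearest 40 had small differences: -0.34 for Neurl1b, 0.22 for Stub1 and -0.30 for Itpr3. The labels name no strain for either group.

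Sex-biased genes of liver were examined because Selenbp2, Ugt2b38 and Ntrk2 belong to them and all mice were male. Those genes are themselves counted in the shares below, so the shares are not independent of that choice. Of 22 measured male-biased genes 13 had a negative difference, with a median of -0.14. Over all genes the median was -0.01, so negative differences were about as common as positive ones there. Selenbp2 and Gstp1 (-0.46) lay below all controls, 9.09% of the list against 2.04% of all genes. Without control 10 the median was -0.34 and 6 (27.3%, against 5.95% of all genes) lay below, with Cyp7b1, Cyp2u1, Ugt2b38 and Cspg5 added. The list mean relative to controls 11 and 12 was -1.19 in control 10 and -1.10, -0.47, -0.48, -0.23 and -1.14 in adjacent liver, so control 10 lay at the level of livers 121 and 81.

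The steroid dehydrogenase Hsd3b5, a defining male gene that was named after its values were seen, is an example. It stood at 3.31, 8.48 and 8.22 in the controls and at 3.20, 8.22, 8.03, 8.25 and 6.48 in adjacent liver. It was thus near 3 in control 10 and adjacent liver 121 and above 6 in the other 6 livers. The 23 female-biased genes had a median of 0.27, and of 0.44 without control 10. Ntrk2, Tox (0.80) and Vldlr (0.37) lay above all controls, 13% of the list against 2.18% of all genes, and no member lay below. Without control 10, 5 lay above (21.7%, against 4.70% of all genes) and 1 below (4.35%, against 5.95%). Adjacent liver 81 was the highest adjacent liver for 10 of the 23.

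**Figure D4:**
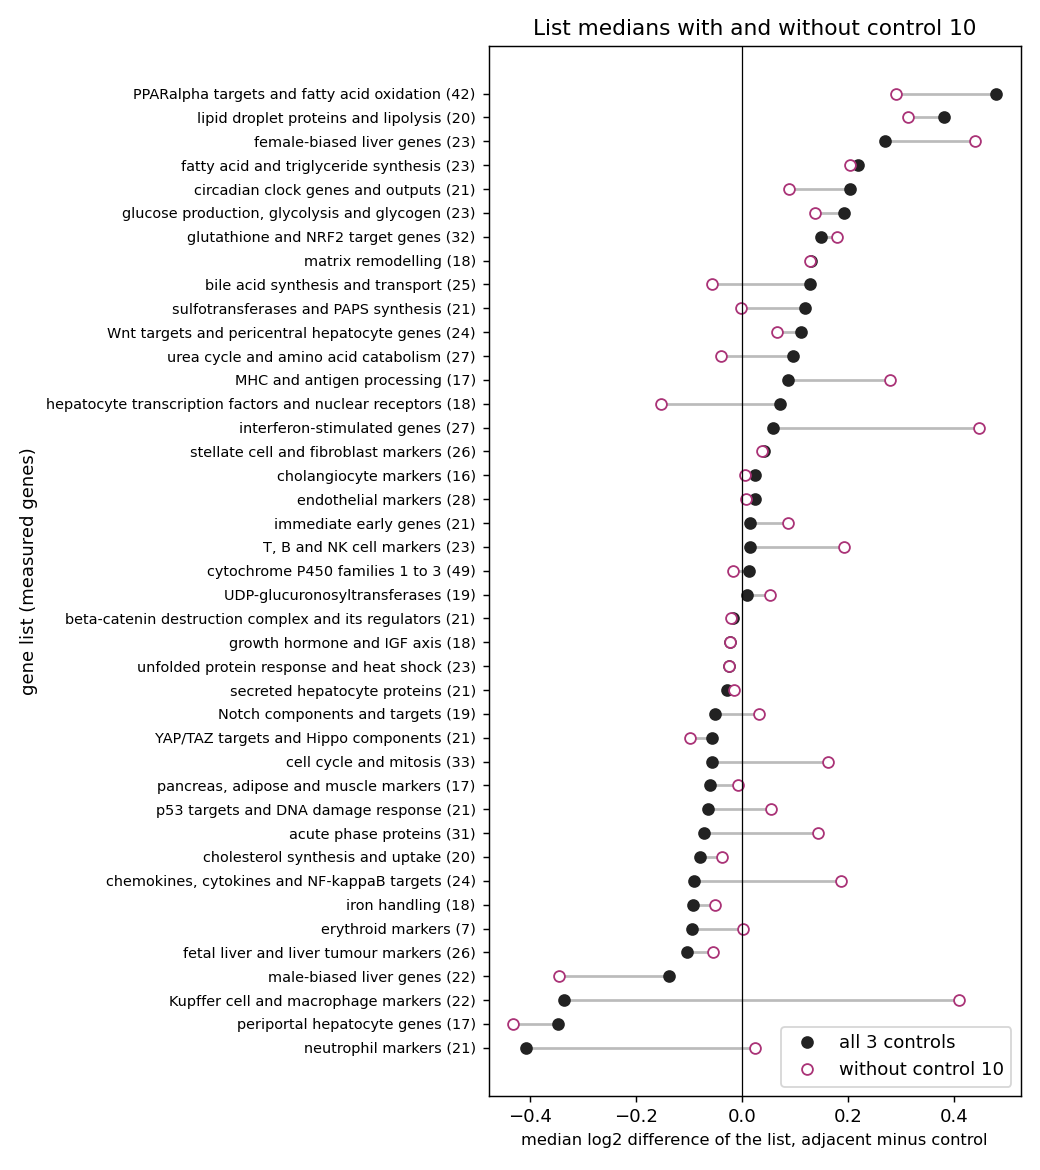
Median log2 difference of each gene list (x axis, adjacent minus control; number of measured genes in brackets on the y axis) with all 3 controls (filled) and without control 10 (open). Fatty acid oxidation has the highest median with all controls, 0.48, and the Kupffer cell and macrophage list moves furthest, from -0.34 to 0.41.

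Several lists of inflammation and immune cells changed the sign of their median with control 10. The median of 22 Kupffer cell and macrophage markers was -0.34 with it and 0.41 without it, and that of 21 neutrophil markers -0.41 and 0.03. Adgre1, the F4/80 antigen of macrophages, stood at 8.54, 5.95 and 4.99 against 7.19, 5.57, 5.97, 5.86 and 6.16. Its difference was -0.34 with control 10 and 0.68 without it. Clec4f, a marker of Kupffer cells, moved from -0.45 to 0.42 in the same way, and the acute phase protein gene Saa1 from -0.63 to 0.43. Of the 21 neutrophil markers Mpo, myeloperoxidase, alone lay below all controls (4.76%, against 2.04% of all genes), with 6.46 in control 10, 4.20 and 4.34 in the others and 3.89 to 4.17 in adjacent liver.

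Interferon-stimulated genes had a median of 0.06, and of 0.45 without control 10, when 3 of 27 (11.1%, against 4.70% of all genes) lay above the remaining controls. Usp18, a protease that removes ISG15, was among them with a difference of 1.20 and was named after its values were seen. Adjacent livers 121 and 81 were high and the other 3 were not: the list mean relative to controls 11 and 12 was 1.17, 0.11, 0.05, 0.22 and 0.77 in adjacent liver and 1.29 in control 10. Cell cycle genes had a median of -0.06, and of 0.16 without control 10, and none of 33 without overlap when all controls were used; without control 10, 5 (15.2%, against 4.70% of all genes) lay above both remaining controls. Mki67, a marker of dividing cells, was at 5.71, 4.53 and 4.21 against 5.26, 4.92, 4.35, 4.06 and 4.79.

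**Figure D5:**
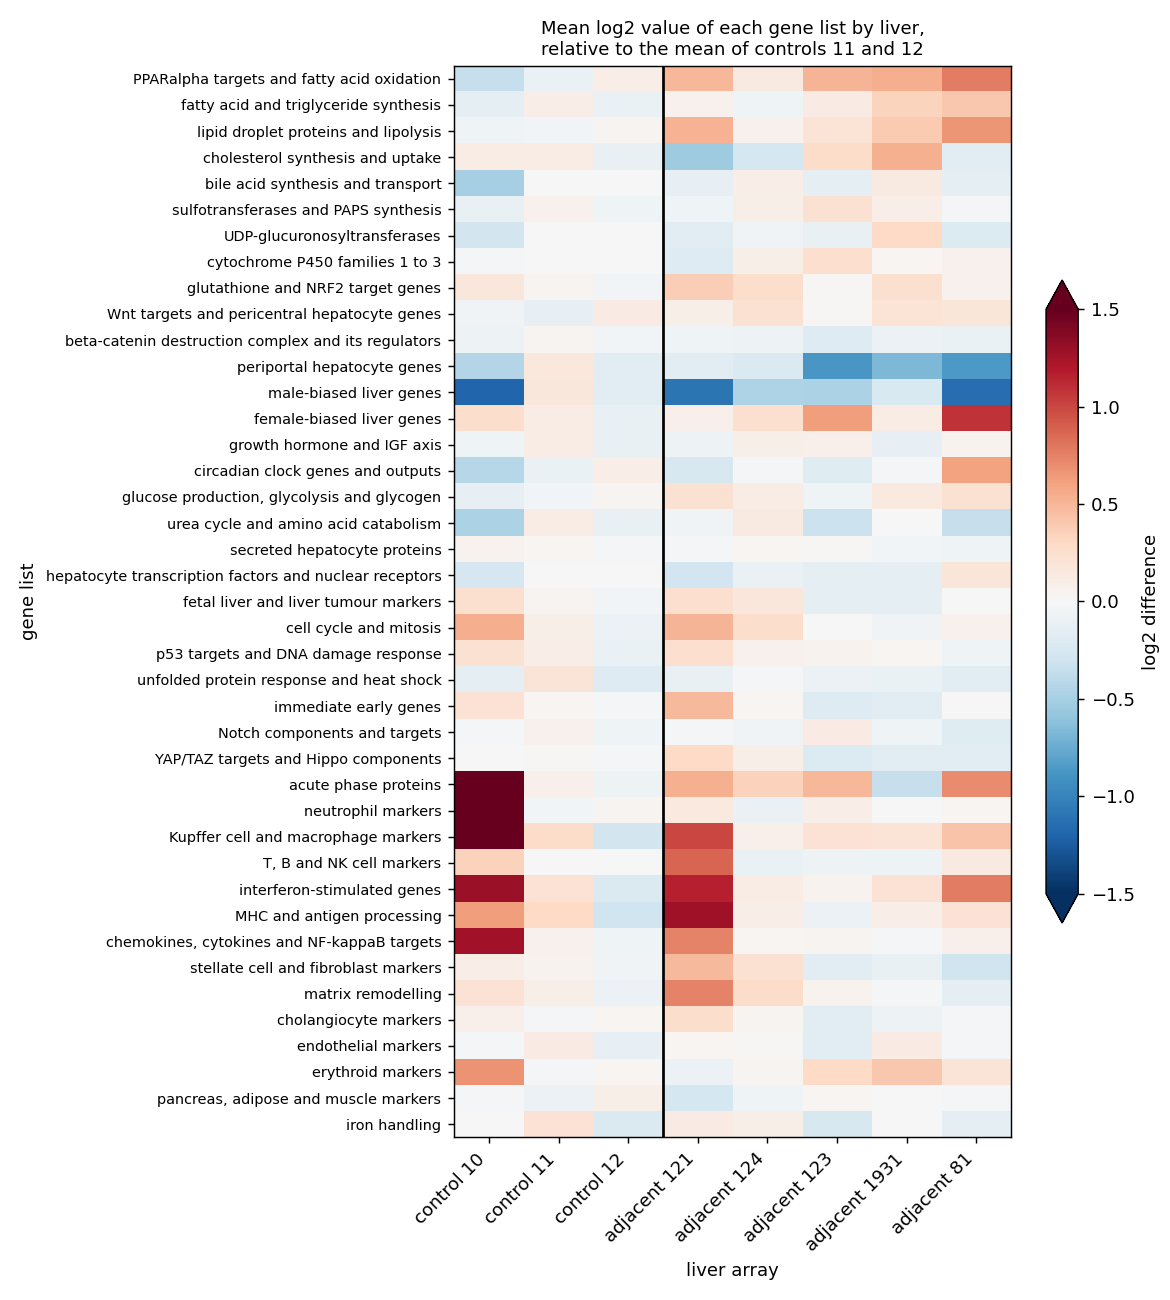
Mean log2 value of each gene list (rows) in each of the 8 livers (columns, controls left of the line), relative to the mean of controls 11 and 12; red is higher, blue is lower, and colours end at 1.5 log2 units either way. Control 10 reaches 2.20 for Kupffer cell and macrophage markers. For MHC genes adjacent liver 121, at 1.27, lies above control 10, at 0.63. The fatty acid oxidation row is positive in all 5 adjacent livers and, at 0.11, in control 12. The lipid droplet, glutathione and NRF2, Wnt target, female-biased, macrophage and interferon rows are also positive in all 5 adjacent livers.

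Among 32 glutathione and NRF2 target genes, 4 lay above all controls (12.5%, against 2.18% of all genes): Gstt2 (0.66, and 0.38 without control 10), Aox1 (0.35), Gsta3 (0.30) and Slc7a11 (0.20), with a list median of 0.15. Gstp1 (-0.46) alone lay below all controls, 3.125% of the list against 2.04% of all genes. Without control 10 the median was 0.18, 2 (6.25%, against 5.95%) lay below and 8 (25%, against 4.70%) lay above. Nqo1, a quinone reductase named after its values were seen, was among those added, with 5.72, 5.14 and 4.76 against 6.01, 6.44, 5.23, 5.70 and 5.74. Of 25 bile acid genes, 3 lay above all controls (12%, against 2.18% of all genes) and 2 below (8%, against 2.04%). Abcb4, which moves phospholipid into bile, stood 0.59 higher (SE 0.14), the side-chain hydroxylase Cyp27a1 0.37 and the ligase Slc27a5 0.20, whereas Fgfr4, the receptor through which intestinal FGF15 reaches the liver, was at -0.37. The median of the bile acid list was 0.13 and, without control 10, -0.06. Then 3 members lay above (12%, against 4.70%) and 3 below (12%, against 5.95%).

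Ecm1, a matrix protein of liver that restrains TGF-beta, stood at 8.98, 9.20 and 9.12 against 8.53, 8.70, 8.30, 8.61 and 7.89, a difference of -0.70 (SE 0.17). It was 1 of 2 genes below all controls among 26 stellate cell and fibroblast markers (7.69%, against 2.04% of all genes), the other being Hhip (-0.48), whereas Loxl2, a collagen crosslinking enzyme, was above them (0.59; 3.85%, against 2.18%). Pfkfb3, which drives glycolysis, lay above all controls (4.70, 5.09 and 4.88 against 6.10, 5.35, 5.22, 5.21 and 7.05). Its difference in means was 0.90 (SE 0.38, limma adjusted p = 0.880), but livers 124, 123 and 1931 lay close to control 11. Bex1, with a difference of 0.64, also lay above all controls, 1 of 2 such genes among 26 fetal liver and tumour markers (7.69%, against 2.18% of all genes). Without control 10, 4 of these markers lay above (15.4%, against 4.70%) and 2 below (7.69%, against 5.95%). The chemokine gene Cxcl12 lay below all controls with a narrow range, 9.52 to 9.68 against 9.24 to 9.40. No gene of the Notch, YAP, immediate early, cholesterol, T and B cell, MHC, matrix, cholangiocyte or endothelial lists was without overlap when all controls were used (against 2.18% of all genes above and 2.04% below). Without control 10, against 4.70% above and 5.95% below, 2 MHC genes (11.8%) lay above. So did 1 gene each of the Notch (5.26%), T and B cell (4.35%), matrix (5.56%) and cholangiocyte (6.25%) lists. Below lay 2 Notch genes (10.5%), 1 cholangiocyte (6.25%) and 1 endothelial gene (3.57%).

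The 5 adjacent livers differed among themselves in ways that the mean of the group hides. Liver 121 was furthest above the other 7 livers for Sprr1a, a cornified envelope protein (7.21 against at most 4.92), Cd3g, a T cell receptor chain (5.95 against at most 3.87), Ccl5, a T cell chemokine (9.40 against at most 7.37), and Mmp12, the macrophage elastase (7.47 against at most 5.58). It was the highest adjacent liver for 17 of 17 MHC genes, 19 of 23 lymphocyte markers and 13 of 18 matrix genes. Sprr1a and Mmp12 were also high in the tumours of that mouse (7.78 and 7.30) and in most tumours of other mice.

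Liver 124 was furthest above the others for DQ267100, Rian and Meg3, noncoding RNAs of the imprinted Dlk1-Dio3 region, and for Zfp617, a zinc finger gene. Meg3 stood at 7.72 there and at 5.02 to 6.55 in the other 7 livers, and Rian at 5.51 against at most 4.24. The tumour of the same mouse was lower, at 5.68 for Meg3 and 3.65 for Rian, whereas the tumours of mice 121, 90, 123 and 81 were between 8.97 and 9.93 for Meg3. Liver 124 was also the adjacent liver nearest the controls for Cyp4a14, Cidec and Plin2.

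Liver 1931 was lowest for the metallothioneins, metal-binding proteins that also respond to glucocorticoids and inflammation. Mt2 stood at 11.70, 7.94 and 7.86 in the controls and at 10.25, 10.22, 9.60, 5.80 and 10.94 in adjacent liver, and Mt1 followed with 7.42 in liver 1931. Zbtb16, a zinc finger transcription factor, was also lowest there at 5.21, and Ugt1a9, a glucuronosyltransferase, highest at 9.27. Liver 123 stood apart for Zfp97 (5.24 against at most 3.25) and Mageb5 above the others, and for Itpa (3.38 against at least 5.01) and Pcdhgb2 below them.

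Liver 81 stood apart for genes of the circadian clock. Ciart, a clock repressor, was at 8.55 there and at 4.61 to 5.41 in the other 7 livers, and Usp2, a clock-driven protease gene, at 8.21 against at most 5.92. Arntl, the activator of the clock, was at 4.77 there and at 6.21 to 7.16 elsewhere, and Dbp, one of its direct outputs, at 8.19 and at 5.35 to 7.14. Rgs16 had its highest value in the same liver, as did Fmo2, a flavin monooxygenase (8.10 against at most 5.88). The mean of 21 clock genes, relative to controls 11 and 12, was 0.60 in liver 81 and -0.24 to -0.01 in the other adjacent livers. Liver 81 was also the highest adjacent liver for 19 of the 42 fatty acid oxidation genes, Cyp4a14 (10.90) among them. At what time of day tissue was collected is not stated in the labels. Its part in Rgs16 and in the fatty acid oxidation genes was not tested.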

How the data were processed

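The values are the deposited log2 expression values of one-colour arrays, in which the authors' processing, per the submitters' processing notes, used RMA and Partek. Per the labels' protocols, Trizol-extracted RNA was amplified and biotin-labelled. The chip and build were not given in the sources used here. RMA evens out the arrays and compresses changes of dim probe sets. Of 24479 probe sets 23281 carried a symbol, and for 2 symbols with 2 probe sets the brighter was kept, leaving 23279 genes. The 5 adjacent and 3 control livers were fitted in limma 3.58.1 (R 4.3.3; lmFit, eBayes with an intensity trend), with Benjamini-Hochberg adjustment over all genes and a threshold of 0.05. The fit was tested on simulated data. The titles number the animals, so the spread is between mice, 5 against 3, which limits the precision, and no batch is labelled.

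Members and the 42 gene lists (1023 entries) were chosen with earlier results of these data known. Lists are described by counts and medians, without a test. Genes were named by a rule: Axin1, Sult5a1 and Cyp4a14; the 12 largest differences each way among genes whose groups do not overlap, with the higher group mean at 5 or above, leaving out predicted genes, small RNAs and receptor families; up to 4 such members of each list, or else its first 2; and the genes furthest from all other livers in control 10 (10 above, 5 below) and in each adjacent liver (4). Other genes, marked so or given as further members of a list, were named after their values were seen. Gene order rests on the 23154 genes matched to RefSeq by gene number. Alternatives were the 3 groups together, the mouse as a random replicate block, other normalizations, filters and weights, and each liver left out.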

Additional observations from a re-analysis of the deposited data

Results flagged for a closer look

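Among the 5 adjacent livers, 1 liver's value lay far from the other 4 (a gap over 0.71 of the whole range) in 20 of 215 gene values and list means examined, 9.30%; chance flags about 1 in 20 groups, and many of these genes were picked because 1 liver stood apart, so the share is a description.

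In liver 121 these were Cd3e (5.90, others 4.35 to 4.66), Cd3g (5.95), Ccl5 (9.40), Sprr1a (7.21) and Ngp (3.30, others 2.62 to 2.70). The mean of the T, B and NK cell list was 0.87 there, that of the MHC list 1.27 and that of the chemokine and cytokine list 0.74, relative to controls 11 and 12, and the other 4 livers reached at most 0.13, 0.22 and 0.08.

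In liver 124 they were Meg3 (7.72, others 5.02 to 5.71), DQ267100 (6.75, others 3.98 to 4.54), the bile duct keratin Krt19 (4.50, others 3.96 to 4.10) and Plin2, which was low (9.46, others 10.11 to 10.29). In liver 123 they were Zfp97 (5.24, others 2.16 to 2.68) and Pcdhgb2 (3.65, others 5.13 to 5.65).

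In liver 1931 Mt2 (5.80, others 9.60 to 10.94), Mt1 (7.42, others 10.06 to 11.03) and Zbtb16 (5.21, others 7.69 to 8.19) were low. In liver 81 Ciart (8.55, others 4.61 to 4.94), Usp2 (8.21, others 5.13 to 5.68) and the mean of the circadian list (0.60, others -0.24 to -0.01) were high.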

How the results depend on the processing

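The count of genes past limma's adjusted p was 0 under all alternatives run except the omission of control 10 (2 genes; 0 to 2 with each liver left out). A random replicate block for mouse number, fitted to all 16 arrays, also gave 0, with 965 genes at an unadjusted p under 0.05; the within-mouse correlation was 0.0732, and no fixed paired fit was possible because controls and adjacent livers share no mouse. The filter on dim genes, which kept 12060, left 860 genes at an unadjusted p under 0.05 and 617 without overlap. Leaving out each liver gave 1352 to 2923 genes without overlap, fewer livers making overlap rarer. The 2 genes past the threshold without control 10 were 1 with array weights, 1 with all 3 groups fitted together, and 0 to 2 when a further liver was left out; these were added after the data were seen. Of 2100 recomputed differences of 141 named genes 46 changed sign, none among the 75 genes without overlap. Median centring gave 9.98e-05 for Xist; Hamp was at 0.051 with array weights, 0.019 with quantile normalization and 0.023 with centring, and Gsk3b at -0.010 with quantile normalization. With each liver left out, ranges that crossed 0 were: Hmgcs1 -0.29 to 0.18, Mki67 -0.44 to 0.31, Top2a -0.79 to 0.36, Fos -0.13 to 0.11, Hes1 -0.42 to 0.20, Hey1 -0.017 to 0.14, Ccn1 -0.16 to 0.44, Saa1 -1.32 to 0.43, Saa2 -1.48 to 0.00034, Adgre1 -1.09 to 0.68, Clec4f -1.07 to 0.42, Cd3e -0.10 to 0.29, Cd3d -0.043 to 0.40, Isg15 -0.55 to 0.10, Ifit1 -0.0069 to 0.91, H2-D1 -0.053 to 0.27, Krt7 -0.39 to 0.066, Pecam1 -0.48 to 0.13, Cdh5 -0.53 to 0.41, Xist -0.049 to 0.029, Glul -0.0056 to 0.44, Hamp -0.090 to 0.12, Abcd2 -0.71 to 0.65, Acot3 -0.14 to 0.29, Axin2 -0.084 to 0.23, Lgr5 -0.015 to 0.37 and Tbx3 -0.18 to 0.17. The cause was not tested. Of 630 recomputed list medians 28 moved by more than the spread, and 29 of 42 lists changed sign somewhere. Depth has no counterpart here; signal over background is not given.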
